A study of Homo sapiens with 4 samples.

Results

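A set of 40 genes of G2 phase and mitosis was followed in MRC5, an established diploid fibroblast line from human fetal lung. They were taken by symbol from a fixed list, by a rule that uses no measured level. The list itself was chosen with earlier results of these data known. All 40 were found among the 26255 genes of the deposited files. Messenger RNA was sequenced in 4 libraries, 2 of cells labelled as having had no treatment (control) and 2 of cells labelled as treated with miRs, which are microRNAs, short RNAs that lower the messenger RNAs they pair with. All 4 are wild type and are placed at 48 h by their titles. The labels do not name the microRNAs, and the series title speaks of a negative-control microRNA where the treatment label gives none, so whether the control cells had one is not known. No label says that replicates were separate cultures, so p-values reflect only how much these libraries vary, and that variation may be technical.

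A cell enters mitosis when cyclin-dependent kinase 1, bound by cyclins A and B, is freed of inhibitory phosphates by CDC25 phosphatases. Kinetochores then join chromosomes to the spindle, and the spindle checkpoint holds back the anaphase-promoting complex until all are attached. That complex marks securin and the cyclins for destruction, separase cuts the rings that hold sister chromatids, and the cell divides. Genes for these steps are transcribed mostly late in the cycle, when B-MYB and FOXM1 act with the MuvB complex on promoters that carry a short element called the cell cycle genes homology region, often near CCAAT boxes bound by NF-Y.

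Letters of that element were looked for in the promoters of these genes, and a few windows are shown because these genes differ in whether the levels of the groups overlapped. In RefSeq promoters of build GRCh38.p14, from 250 bases before to 50 after the start, 33 of the 40 genes were matched by symbol. The letters TTTGAA or TTCGAA, searched on both strands, stood in 23 of the 33 (69.7%) and in 16.6% of all 27305 promoters of the table, noncoding genes included. CCAAT, searched on both strands, stood in 25 (75.8%) against 35.7%, and both kinds of letters stood in 19 (57.6%) against 6.58%. Within the 60 bases before the start, the first kind began in 13 (39.4%) against 3.16%. The 100 bases before the start of 5 genes follow, 5′ to 3′ on the gene's strand, with every match in capitals. A match on the other strand reads TTCAAA or ATTGG, and neighbouring matches may overlap.
ESPL1, chr12:53268199-53268298, plus strand: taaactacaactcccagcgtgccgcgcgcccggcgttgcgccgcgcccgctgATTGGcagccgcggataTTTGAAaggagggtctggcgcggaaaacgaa
CENPA, chr2:26785956-26786055, plus strand: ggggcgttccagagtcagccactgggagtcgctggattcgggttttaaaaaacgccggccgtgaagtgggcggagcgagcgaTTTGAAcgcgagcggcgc
HMMR, chr5:163460532-163460631, plus strand: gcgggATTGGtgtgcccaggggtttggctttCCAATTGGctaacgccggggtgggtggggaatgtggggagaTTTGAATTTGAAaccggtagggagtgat
PRC1, chr15:90994536-90994635, minus strand: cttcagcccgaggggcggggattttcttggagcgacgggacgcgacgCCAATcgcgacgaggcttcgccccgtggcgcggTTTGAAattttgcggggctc
ANLN, chr7:36389762-36389861, plus strand: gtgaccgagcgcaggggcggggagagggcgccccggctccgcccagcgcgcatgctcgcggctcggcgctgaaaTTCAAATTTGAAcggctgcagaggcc
These are matches of letters and not shown sites of binding. In ESPL1 and CENPA both miRs libraries lay above both controls, in PRC1 and ANLN the groups overlapped, and all 4 hold TTTGAA at 18 to 31 bases before the start.

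Levels are FPKM, that is, sequenced fragments per kilobase of a gene's transcript after scaling to library size, and are read from 2 libraries per group, given as replicate 1 and then replicate 2. Differences are miRs minus control on the scale of log2(FPKM + 1), which understates changes of low genes. Between 11622 and 11781 genes per library reached 1 FPKM. The number of reads is unknown, but the commonest ratio between low values put the worth of 1 fragment at 0.899 to 1.05 times that in control replicate 1. The miRs libraries differed more from each other (r = 0.949 across 11860 genes, which are not independent replicates) than the controls did (r = 0.985).

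Most of the 40 mitotic genes had somewhat higher levels in miRs, led by MYBL2, which encodes B-MYB, at 2.08 times its control mean. In 30 of the 40 both miRs libraries lay above both controls (against 29.5% of all tested genes). CDC25B alone had both miRs libraries below both controls, against 30.0% of all genes, and 9 overlapped. The median difference was 0.39 over the 40 and −0.002 over all 11860 tested genes, and the differences ranged from −0.19 to 1.01. None of the 40 passed an adjusted p of 0.05 in limma, a test that called 0.245% of all genes (29). An unadjusted p under 0.05 with a higher level was reached by 20 of the 40 and by 11.2% of all genes. With a lower level it was reached by none of the 40 and by 13.0% of all genes. The smallest adjusted p among the 40 was 0.0663.

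The median difference from the control mean was 0.37 for miRs replicate 1 and 0.33 for replicate 2. The levels of the 40 genes summed to 1319 and 1221 FPKM in control replicates 1 and 2 and to 1687 and 1534 FPKM in miRs replicates 1 and 2. Both miRs sums thus stood above both control sums. In bulk RNA, more cells in G2 and mitosis and more of these transcripts per cell cannot be told apart. Leaving out 1 library changed the calls. Dropping either miRs library raised the calls among the 40, all of them higher, but also among all tested genes. Dropping either control left almost no gene of any kind called. The lack of calls among the 40 in those 2 fits is thus not particular to them. The median difference of the 40 was 0.41 or 0.34 with control replicate 1 or 2 dropped. Dropping miRs replicate 1 or 2 made it 0.33 or 0.37. Each of these fits takes its spread from the remaining pair and assumes that the lone library varies alike. Along with the share over all genes, the count with an unadjusted p under 0.05 and a higher level differed between these fits. It was 6 without control replicate 1 (3.39% of all genes), 2 without control replicate 2 (3.61%), 20 without miRs replicate 1 (16.1%) and 26 without miRs replicate 2 (22.7%).

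**Figure D1:**
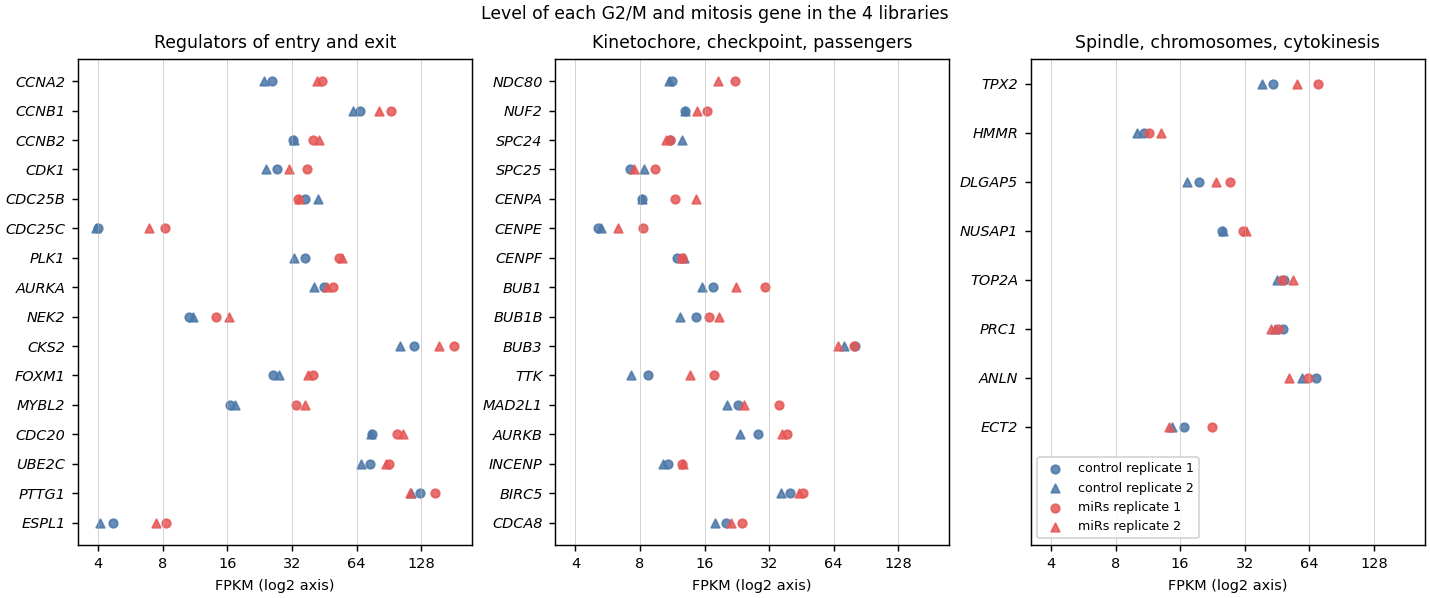
Level of each of the 40 genes (x axis, FPKM on a log2 axis) in the 4 libraries, in 3 panels by role; blue marks are controls, red marks miRs, circles replicate 1 and triangles replicate 2. The red marks of MYBL2, CCNA2, NDC80 and TTK stand clear to the right of the blue ones, while those of PRC1, CENPF and BUB3 mix with them.

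Among the 16 regulators of entry and exit, 14 had both miRs libraries above both controls, against 29.5% of all tested genes. In limma, 12 reached an unadjusted p under 0.05 with a higher level, against 11.2% of all genes. The median difference of the 16 was 0.44. MYBL2, the activator that works with MuvB, was at 16.5 and 17.3 FPKM in the control pair and 33.4 and 36.9 FPKM in the miRs pair. Its pairs agree closely and lie far apart (difference 1.01 ± 0.13 SE, adjusted p = 0.0663 in limma). FOXM1, the other activator, averaged 26.95 ± 1.24 FPKM in the control pair and 39.0 ± 1.42 FPKM in the miRs pair (SD, n = 2 each), a ratio of 1.45.

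CCNA2, the cyclin of S and G2 phase, was at 25.9 and 23.8 FPKM in the control pair and 44.4 and 41.7 FPKM in the miRs pair, with all libraries of a group close together (difference 0.77 ± 0.13, adjusted p = 0.0822 in limma). The B cyclins, which carry the cell into mitosis, differed less. CCNB1 averaged 63.85 and 86.9 FPKM and CCNB2 32.5 and 41.4 FPKM in the control and miRs pairs, ratios of 1.36 and 1.27. Their kinase, CDK1, averaged 25.7 and 34.4 FPKM, a ratio of 1.34 (adjusted p = 0.219), and CKS2, a small partner of the kinase, 110.0 and 169 FPKM, a ratio of 1.53.

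The CDC25 phosphatases differed in the direction of their means. CDC25C was at 4.01 and 3.90 FPKM in the control pair and 8.22 and 6.90 FPKM in the miRs pair (difference 0.78 ± 0.15, adjusted p = 0.0890 in limma). CDC25B was at 36.8 and 42.3 FPKM in the control pair and 34.2 and 34.5 FPKM in the miRs pair, the only one of the 40 with both miRs libraries below both controls (difference −0.19 ± 0.13, adjusted p = 0.420). Per length of transcript, CDC25B was the more abundant of the pair in every library.

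Of the mitotic kinases, PLK1 averaged 34.6 ± 2.85 FPKM in the control pair and 53.9 ± 1.41 FPKM in the miRs pair (ratio 1.55), and NEK2, a kinase of the centrosome, 10.9 ± 0.302 and 15.2 ± 1.47 FPKM (1.4). AURKA, the Aurora kinase of the spindle poles, averaged 42.8 ± 3.17 and 48.03 ± 2.30 FPKM (SD, n = 2 each), a ratio of 1.12. Its miRs libraries, at 49.7 and 46.4 FPKM, were barely above its higher control, at 45.1 FPKM.

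Among genes of mitotic exit, 3 of 4 had both miRs libraries above both controls (against 29.5% of all tested genes). ESPL1, the separase, was at 4.68 and 4.06 FPKM in the control pair and 8.24 and 7.42 FPKM in the miRs pair, with no overlap (difference 0.72 ± 0.15, adjusted p = 0.0940 in limma). PTTG1, the securin that restrains separase, was at 126 and 115 FPKM in the control pair and 148 and 114 FPKM in the miRs pair. Its 2 miRs libraries lie on either side of the controls (difference 0.11 ± 0.18, adjusted p = 0.734), and its level is uncertain because near-identical retrocopies exist. CDC20, which activates the anaphase-promoting complex, averaged 75.2 and 102 FPKM (ratio 1.35), and UBE2C, the enzyme that supplies that complex with ubiquitin, 70.5 and 89.1 FPKM (1.26).

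**Figure D2:**
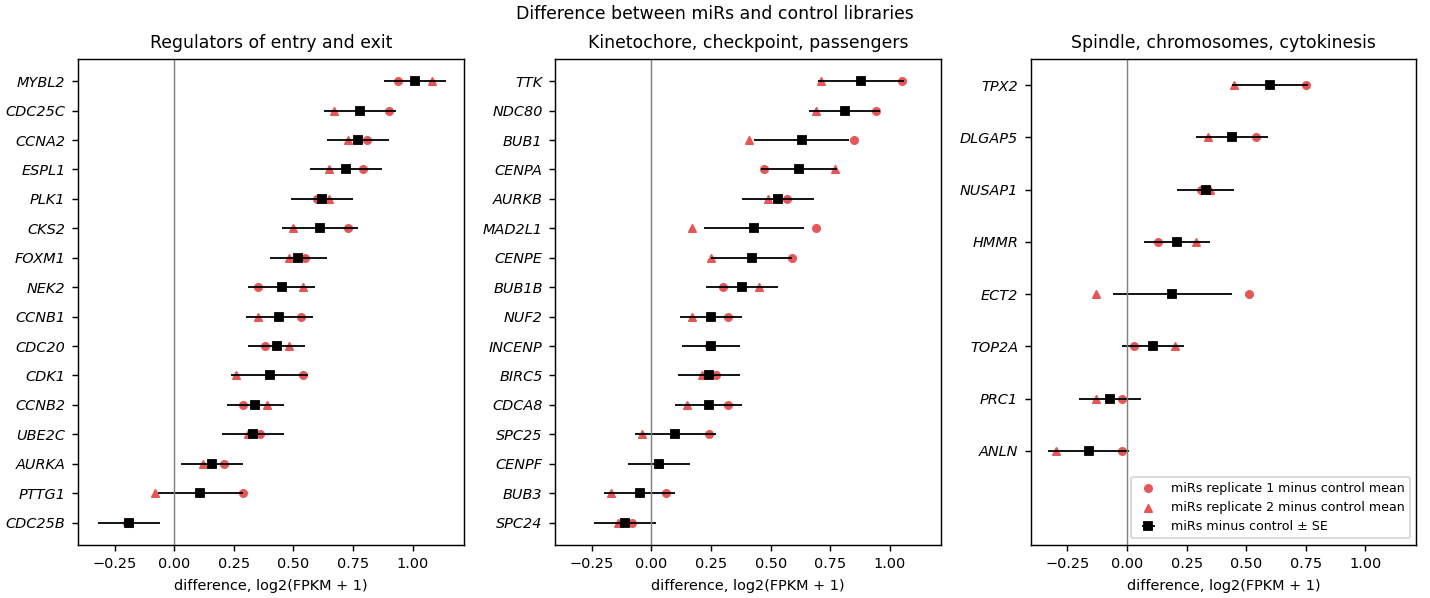
Difference of each gene between miRs and control on the log2(FPKM + 1) scale (x axis), ordered by size within 3 panels by role; black squares with bars are limma's difference ± SE, red circles and triangles are miRs replicates 1 and 2 minus the control mean. MYBL2 is highest at 1.01 and CDC25B lowest at −0.19, and ECT2 has its 2 red marks farthest apart.

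Of the 16 genes of the kinetochore, checkpoint and chromosomal passenger complex, 12 had both miRs libraries above both controls (against 29.5% of all tested genes). The other 4 overlapped. In limma, 5 reached an unadjusted p under 0.05 with a higher level, against 11.2% of all genes. The median difference of the 16 was 0.31. The 4 subunits of the NDC80 complex, which grips microtubule ends, had unlike differences. NDC80 was at 11.3 and 10.9 FPKM in the control pair and 22.2 and 18.5 FPKM in the miRs pair (difference 0.81 ± 0.15, adjusted p = 0.0863 in limma). NUF2, its direct partner, averaged 13.0 and 15.6 FPKM, a ratio of 1.20.

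SPC24, which with SPC25 anchors the complex to the inner kinetochore, was at 11.1 and 12.6 FPKM in the control pair and 11.1 and 10.6 FPKM in the miRs pair (difference −0.11 ± 0.13). SPC25 was at 7.18 and 8.37 FPKM in the control pair and 9.36 and 7.51 FPKM in the miRs pair (difference 0.10 ± 0.17). The groups overlapped for both anchoring subunits (adjusted p = 0.641 and 0.737 in limma).

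Of 5 checkpoint genes, 4 had both miRs libraries above both controls (against 29.5% of all tested genes). TTK, the kinase MPS1 that starts checkpoint signalling, was at 8.74 and 7.28 FPKM in the control pair and 17.6 and 13.6 FPKM in the miRs pair, without overlap (difference 0.88 ± 0.18, adjusted p = 0.0954 in limma). BUB1 averaged 16.6 ± 1.45 and 26.5 ± 5.88 FPKM, BUB1B, which encodes BUBR1, 13.4 ± 1.70 and 17.7 ± 1.41 FPKM, and MAD2L1, which encodes MAD2, 21.7 ± 1.80 and 29.96 ± 7.80 FPKM (SD, n = 2 each). For BUB1 and MAD2L1 miRs replicate 1 was well above replicate 2, by 1.37-fold and 1.45-fold. BUB3, the scaffold of BUB1 and BUBR1, was at 80.1 and 71.8 FPKM in the control pair and 79.4 and 67.1 FPKM in the miRs pair, with overlap (difference −0.05 ± 0.15, adjusted p = 0.845 in limma).

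CENPA, the histone H3 variant that marks centromeres, was at 8.16 and 8.19 FPKM in the control pair and 11.7 and 14.6 FPKM in the miRs pair (difference 0.62 ± 0.16, adjusted p = 0.120 in limma). CENPE, a kinesin of the kinetochore, averaged 5.18 and 7.31 FPKM, a ratio of 1.41. CENPF, a large protein of the outer kinetochore, was at 11.8 and 12.9 FPKM in the control pair and 12.6 and 12.6 FPKM in the miRs pair, so both miRs values lay between the controls (difference 0.03 ± 0.13, adjusted p = 0.913).

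In the chromosomal passenger complex, which corrects faulty attachments, the kinase AURKB was at 28.4 and 23.4 FPKM in the control pair and 38.7 and 36.7 FPKM in the miRs pair (difference 0.53 ± 0.15, adjusted p = 0.139 in limma). Its scaffold INCENP and its targeting subunits BIRC5 (survivin) and CDCA8 (borealin) had miRs means of 1.20, 1.19 and 1.19 times the control means. All 4 subunits had both miRs libraries above both controls, against 29.5% of all tested genes. AURKB alone reached an unadjusted p under 0.05 in limma, as 11.2% of all genes did with a higher level.

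The 8 genes of the spindle, chromosome structure and cytokinesis had a median difference of 0.20 (0.13 without control replicate 2). Both miRs libraries lay above both controls in 4, against 29.5% of all tested genes, and 4 overlapped. In limma, 3 reached an unadjusted p under 0.05 with a higher level, against 11.2% of all genes. TPX2, which activates Aurora A on the spindle, was at 43.5 and 38.6 FPKM in the control pair and 69.9 and 56.3 FPKM in the miRs pair (difference 0.60 ± 0.16, adjusted p = 0.135 in limma). DLGAP5, a spindle protein, was at 19.7 and 17.2 FPKM in the control pair and 27.3 and 23.6 FPKM in the miRs pair. NUSAP1, which bundles microtubules near chromosomes, was at 24.95 and 25.5 FPKM in the control pair and 31.4 and 32.3 FPKM in the miRs pair. These 3 were separated between groups, and so was HMMR, a spindle protein and hyaluronan receptor, at 10.8 and 10.1 FPKM in the control pair and 11.5 and 13.1 FPKM in the miRs pair.

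For the 3 cytokinesis genes the groups overlapped. PRC1, which bundles microtubules of the midzone, was at 48.3 and 44.5 FPKM in the control pair and 45.6 and 42.4 FPKM in the miRs pair (difference −0.07 ± 0.13, adjusted p = 0.751 in limma). ANLN, the anillin of the contractile ring, was at 68.9 and 59.1 FPKM in the control pair and 63.0 and 51.7 FPKM in the miRs pair (difference −0.16 ± 0.17). ECT2, the exchange factor that sets up the ring, was at 16.7 and 14.6 FPKM in the control pair and 22.6 and 14.2 FPKM in the miRs pair, so that the 2 miRs libraries disagreed in direction (difference 0.19 ± 0.25). TOP2A, the topoisomerase that untangles chromosomes, was at 48.8 and 45.1 FPKM in the control pair and 47.8 and 53.9 FPKM in the miRs pair, with overlap (difference 0.11 ± 0.13).

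Within a library, the ratio of one gene to its partner does not depend on the scaling of that library. In all, 8 pairs were compared in this way, and 7 had groups that did not overlap. The pairs were chosen after their values were seen, so that count follows in part from the choice. Some of the pairs share NDC80, and the share among other pairs of genes was not computed. No conclusion is drawn from the count. The log2 ratio of NDC80 to SPC24 was 0.02 and −0.20 in the controls and 1.0 and 0.80 in miRs, a change of 0.99. That of CDC25C to CDC25B was −3.20 and −3.44 in control and −2.06 and −2.32 in miRs. The ratio of separase to securin (ESPL1 to PTTG1) was −4.76 and −4.83 in control and −4.17 and −3.94 in miRs. AURKB to AURKA went from −0.67 and −0.80 to −0.36 and −0.34. CCNB1 to CCNB2 overlapped, at 1.04 and 0.91 in control and 1.21 and 0.93 in miRs. With 2 libraries against 2, a 2-sided exact permutation test cannot give less than p = 0.333. The 7 pairs without overlap had that value in this test, and 0.381 after adjustment over the 8 pairs. These ratios are therefore a description.

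**Figure D3:**
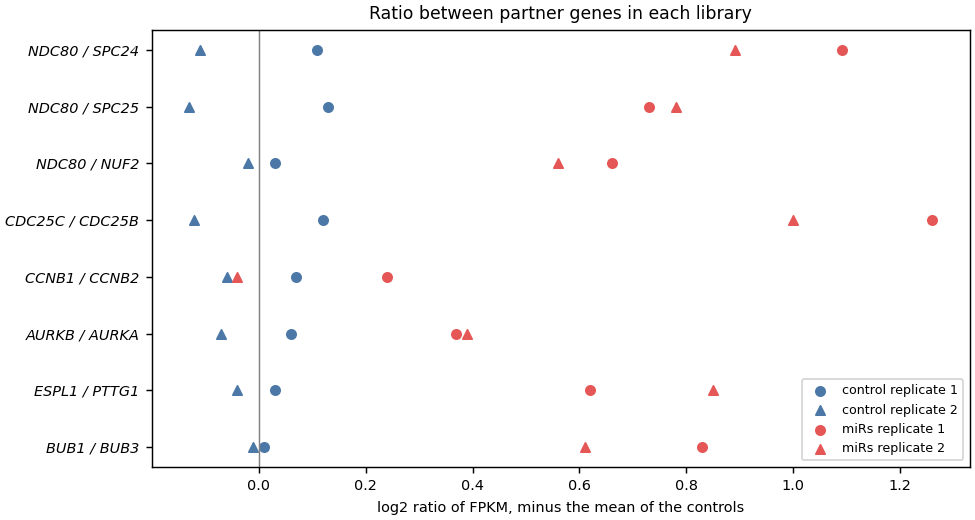
Log2 ratio of FPKM between 8 pairs of partner genes in each library, minus the mean of the 2 controls (x axis); blue marks are controls, red marks miRs, circles replicate 1 and triangles replicate 2. The red marks lie to the right of both blue marks in 7 pairs, and CCNB1 to CCNB2 is the exception. The pairs were chosen after their values were seen.

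Other genes of the same pathway, 137 in 6 lists with 135 tested, had a median difference of 0.24. Both miRs libraries lay above both controls in 77 (57.0%, against 29.5% of all tested genes) and below in 12 (against 30.0%). None passed over all genes in limma. An unadjusted p under 0.05 was reached by 35 higher and 6 lower, against 11.2% and 13.0% of all genes. These shares are the background for the counts of each list below as well. Besides the 40, 19 tested regulators of entry and exit had a median of 0.42, with 8 higher and 1 lower at an unadjusted p under 0.05. CCNF, a cyclin that targets proteins for destruction, averaged 1.61 times its control mean, GTSE1, a G2 protein that restrains p53, 1.52 times, and PKMYT1, which puts inhibitory phosphates on CDK1, 1.43 times.

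Of 34 other kinetochore and centromere genes (median 0.25, or 0.44 without miRs replicate 2), 6 were higher and 1 lower at an unadjusted p under 0.05. MIS18A, which helps load CENPA, averaged 1.65 times its control mean and CENPK, of the inner kinetochore, 2.09 times. SKA2, of the complex that steadies attachments, went the other way, at 16.8 and 16.3 FPKM in the control pair and 12.0 and 9.43 FPKM in the miRs pair. Of 35 other spindle and cytokinesis genes (median 0.24), 12 were higher and 1 lower. The kinesins KIF18A and KIF20B averaged 1.80 and 1.90 times their control means. The lower one was CEP55, which directs the final cut between daughter cells, at 28.3 and 25.5 FPKM in the control pair and 15.98 and 11.5 FPKM in the miRs pair (difference −0.94 ± 0.19, adjusted p = 0.0954 in limma).

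Cohesin and condensin genes had a median of 0.26 over 21 tested, with 6 higher and 1 lower. The condensin cores SMC4 and SMC2 averaged 1.49 and 1.5 times their control means. NCAPG, a condensin I subunit, averaged 2.01 times its control mean, with miRs replicate 1 well above replicate 2. It was at 8.27 and 7.41 FPKM in the control pair and 19.9 and 11.6 FPKM in the miRs pair. The anaphase-promoting complex stood near the background, with a median of 0.05 over 15 tested, 1 higher and 1 lower. Dropping miRs replicate 1 made that median −0.04 and dropping miRs replicate 2 made it 0.13, while dropping control replicate 1 or 2 made it 0.10 or 0.01. Its largest subunit, ANAPC1, averaged 1.53 times its control mean, while its chain-elongating enzyme UBE2S was at 162 and 141 FPKM in the control pair and 107 and 109 FPKM in the miRs pair. ANAPC15, a subunit that turns over the checkpoint complex, averaged 0.724 times its control mean.

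MuvB and DREAM genes, which repress this program in resting cells and activate it with B-MYB, had a median of 0.12 over 12 tested (0.22 without miRs replicate 2), with 3 higher and 1 lower. RBL2, the p130 pocket protein of the repressing form, was at 10.8 and 10.9 FPKM in the control pair and 6.18 and 6.48 FPKM in the miRs pair, close within each group (difference −0.69 ± 0.12, adjusted p = 0.0863 in limma). LIN9, a core MuvB subunit, was at 1.70 and 1.73 FPKM in the control pair and 4.36 and 2.93 FPKM in the miRs pair. E2F5, a partner of the pocket proteins, was at 1.84 and 1.28 FPKM in the control pair and 3.14 and 3.01 FPKM in the miRs pair.

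**Figure D4:**
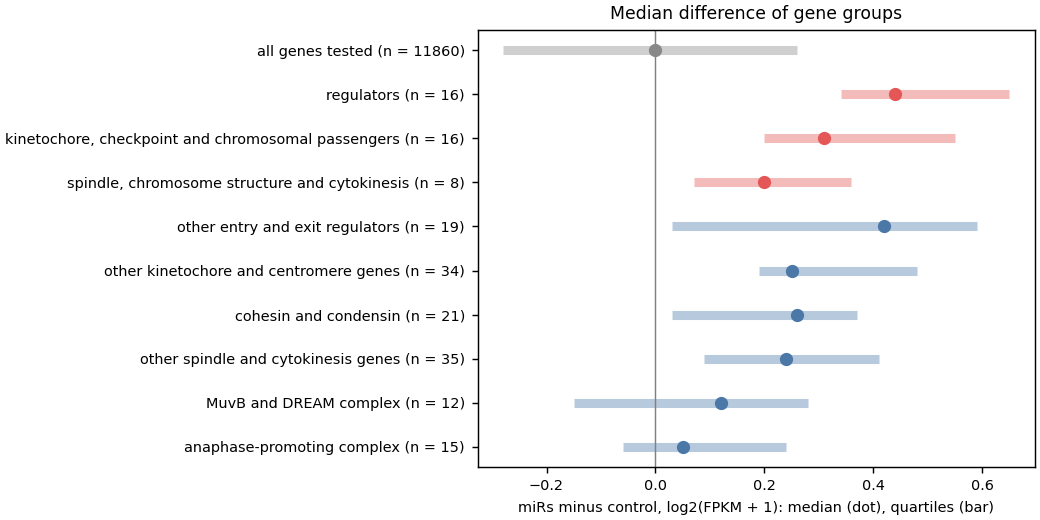
Median (dot) and quartiles (bar) of the difference between miRs and control on the log2(FPKM + 1) scale (x axis) for all tested genes (grey), the 3 role groups of the 40 genes (red) and 6 lists of other pathway genes (blue), with the number tested. The regulators stand at 0.44 and the anaphase-promoting complex at 0.05, beside a median near 0 for all genes.

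Promoter letters and size of difference were set side by side. The 23 matched members with TTTGAA or TTCGAA had a median difference of 0.34. Of these, 17 were above both controls in both miRs libraries, against 29.5% of all tested genes. The 10 without those letters had a median of 0.44, and 7 were above. Those 10 include MYBL2, CCNA2 and CDC25C. Only these letters were searched, around a single start of each gene. Other spellings of the element, or other starts, would be missed, so lack of a match does not show lack of the element. Among the other pathway genes 110 of 135 were matched, and the medians were 0.31 for the 50 with and 0.17 for the 60 without.

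Level and difference were weakly related across the 40 genes (Pearson's r = −0.20, with every gene from the same 4 libraries). The 20 genes above the members' median level of 27.3 FPKM had a median difference of 0.34 and the 20 below it one of 0.42.

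Among markers of cell identity, the epithelial sums separated the groups and the fibroblast sums overlapped. Epithelial markers summed to 33.6 and 35.8 FPKM in the control pair and to 207 and 273 FPKM in the miRs pair. Of 12 listed, 7 reached the minimum for the test, and 3 of these (KRT7, CLDN7 and CLDN4) averaged under 1 FPKM in control and passed it only through their miRs levels. In the other 4, KRT8, KRT18, KRT19 and MUC1, both miRs libraries lay above both controls, against 29.5% of all tested genes. The simple-epithelial keratins KRT18 and KRT19 rose, to 8.92 and 5.35 times their control means (adjusted p = 0.0354 for both in limma). CDH1 was listed at 0 in 3 libraries and at 0.0356 FPKM in control replicate 1, and SFTPC, SFTPB and SCGB1A1 at 0 in all 4. Fibroblast markers summed to 12980 and 12080 FPKM in the control pair and 8330 and 12880 FPKM in the miRs pair, with 5 of 10 below both controls (against 30.0% of all genes) and 0 above. PECAM1 and PTPRC, which define endothelial and blood cells, did not exceed 0.0182 FPKM in any library. Of 6 endothelial markers TEK alone exceeded 1 FPKM, at 13.49 and 10.97 FPKM in the control pair and 13.7 and 5.51 FPKM in the miRs pair. Of 8 blood cell markers CD68, a lysosomal protein, alone did so, at 53.8 and 57.6 FPKM in the control pair and 130.2 and 41.9 FPKM in the miRs pair. For both genes the groups overlapped, with miRs replicate 1 above replicate 2. Among widely used reference genes, ACTB averaged 5633 FPKM in the control pair and 3351 FPKM in the miRs pair and GAPDH 5831 and 4578 FPKM. The part of these shifts in the differences of the mitotic genes was not tested.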

How the data were processed

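RNA of 4 MRC5 libraries was extracted with an RNeasy kit and prepared with the TruSeq Stranded mRNA kit, per the labels' protocols. Per the file headers, the authors deposited FPKM, with 1 value for each symbol in each library. The build hg19 and the tools Cuffdiff 2.2.1, SAMtools 0.1.18, TopHat2 2.1.1 and Bowtie2 2.2.8 appear in the submitters' processing notes, with no roles. How genes were annotated, strand was treated and libraries were scaled is not given in the sources used here, so overlapping genes may share fragments. FPKM keeps no read totals.

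Groups came from the treatment label. The 11860 genes whose mean over the libraries reached 1 FPKM, with all 40 members among them, entered a limma fit (version 3.58.1, R 4.3.3) of log2(FPKM + 1) with a variance trend, 2-sided, with Benjamini-Hochberg adjustment at 0.05 and 2 residual degrees of freedom. The code of the fit was tried on simulated data with equal spread in both groups. The miRs libraries varied more than the controls, so that trial does not show how the fit behaves on these data. Summaries used Python 3.11.15, numpy 2.4.6 and pandas 2.3.3. Symbols that were older names were searched under both forms. The members and the gene lists were chosen with earlier results of these data known.

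Every library's value is given for the 4 members with the smallest p in each role group and for members not above both controls in both miRs libraries, and in each other list up to 3 genes with the smallest p are named. FOXM1, AURKA and other members are named with means. Alternative settings changed the pseudocount (0.1), the minimum (none, or 5 FPKM) or the scaling (median of ratios, quantile), dropped the variance trend, added the replicate block, or left out each library in turn. Partner pairs were added after the data were examined. The promoters come from RefSeq (GRCh38.p14), a build other than hg19.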

Additional observations from a re-analysis of the deposited data

How the results depend on the processing

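The count of all genes called was 29 and ranged from 0 to 3746 when 1 library was left out. It was 6 with quantile normalization and 0 with no minimum FPKM in limma, where 3338 genes had an unadjusted p under 0.05. With the replicate block it was 99. Same-numbered libraries deviated together with r = 0.201 across all tested genes and 0.327 across the 40, from 2 pairs, and the labels do not say whether a number marks a shared culture or day, so the pairing was not used. Among the 40 mitotic genes 0 were called under each of the 7 settings that keep all libraries, and 0 to 19 with 1 left out. Those with an unadjusted p under 0.05 and a higher level numbered 17 to 20 under the 7 settings, where the share over all genes was 8.92% to 12.2%, and 2 to 26 with 1 left out, where it was 3.39% to 22.7%. Those with both miRs libraries above both controls numbered 30 under all 7, against 25.7% to 30.4% of all genes. Leaving out a library cannot lower that count. Their median difference stayed between 0.33 and 0.41 with 1 library left out. The difference of CENPF was −0.01 with quantile normalization and −0.03 to 0.08 with 1 library left out. Leaving out 1 library also changed the sign of BUB3 (−0.17 to 0.06), PTTG1 (−0.08 to 0.29), SPC25 (−0.04 to 0.24) and ECT2 (−0.13 to 0.51), and of the median of the anaphase-promoting complex (−0.04 to 0.13). The medians of the other kinetochore and centromere genes (0.18 to 0.44), of MuvB and DREAM genes (0.09 to 0.22) and of the spindle, chromosome structure and cytokinesis genes (0.13 to 0.27) moved by over 1.5 times when 1 library was left out. Why the libraries differ was not tested. A fit on 3 libraries takes its spread from 1 pair, which bears on the calls and not on these differences and medians. Depth is unknown, so no counting error is given. With 2 libraries per group the sizes of single differences rest on few values.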
